A study of Mus musculus with 6 samples.

Results

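The creatine kinases and the genes that supply creatine were examined in the heart, where 8 of the 18138 gene symbols on the array were chosen, namely Ckmt2, Ckmt1, Ckm, Ckb, Slc6a8, Gatm, Gamt and Ak1. They were represented by 9 of the 25697 probes on the array, with 2 probes for Ckmt2 and 1 for each of the others, and 8 of the 9 probes passed the detection filter. The set was chosen by symbol, but on measured values of this same comparison, the log2 fold changes between hSRY-ON and hSRY-OFF hearts, of which those of Ckmt2 were the lowest of all tested probes. Their changes are therefore given as a description. Where a member is said to be differentially expressed or not, this gives its place in the fit over all probes and is no independent test of it. Total RNA was taken from the hearts of 3 hSRY-ON and 3 hSRY-OFF male mice of the FVB strain (FVB/N in the methods) at postnatal day 6, and each heart was hybridized to its own Illumina bead array. In hSRY-ON mice a Signalox-hSRY transgene had been recombined in the early embryo by Cre recombinase carried over from the oocyte of a Ddx4-Cre mother, so that the broadly active CAG promoter drove FLAG-tagged human SRY together with EGFP. The hSRY-ON animals taken for the arrays did not themselves carry Ddx4-Cre. The methods describe hSRY-OFF mice as carrying the same transgene without recombination, whereas the control littermates described elsewhere in the study lacked it, so the genotype of the control hearts is uncertain. The transgene sits at a single integration site and is active throughout the body, so a change in the heart cannot be ascribed to heart cells alone. The study reports that hSRY-ON pups were retarded in growth by this age and that some had already died. Effects of poor growth or of survival cannot be told apart here from those of the transgene in the heart.

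Creatine kinases transfer a phosphate group between ATP and creatine, and the phosphocreatine so formed buffers ATP in muscle and nerve. The mitochondrial isoforms work between the mitochondrial membranes beside the ATP exporters, while the cytosolic isoforms work at the myofibrils and ion pumps, where ATP is spent. The developing heart contains both the muscle and the brain form of the cytosolic enzyme, and the muscle form and the sarcomeric mitochondrial form become more abundant as it matures. Creatine itself is made mainly in kidney and liver, and the heart takes it up from blood.

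The intensities were background corrected, quantile normalized and put on the log2 scale, and a negative log2 fold change means a lower value in the hSRY-ON hearts. The 12970 probes with a detection p under 0.05 in 3 or more hearts were tested with limma. Those with an adjusted p under 0.05 (Benjamini-Hochberg, over all 12970) are called differentially expressed. Each array detected 47.2% to 51.3% of its probes. The array of hSRY-OFF replicate 3 was the dimmest (mean intensity 631, where the rest had 723 to 939). The probe for mouse Sry was detected on none of the 6 arrays, and the human transgene was not measured here. Nothing states whether the pups came from separate litters, so a standard error covers only the spread between these hearts. Of the 8 tested member probes, 5 were lower and 1 was higher in hSRY-ON among the differentially expressed probes, where 27.5% of all tested probes were differentially expressed, 13.7% lower and 13.8% higher. In 6 member probes every hSRY-ON heart lay below every hSRY-OFF heart and in 1 every hSRY-ON heart lay above, against 21.6% and 23.6%, or 45.2% in all, of the tested probes. Since the genes were chosen with the comparison known, nothing is read from these shares. The median log2 fold change was -0.71 over the 8 tested member probes, in which both Ckmt2 probes count, and -0.0046 over all tested probes. These medians too are only a description.

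**Figure D1:**
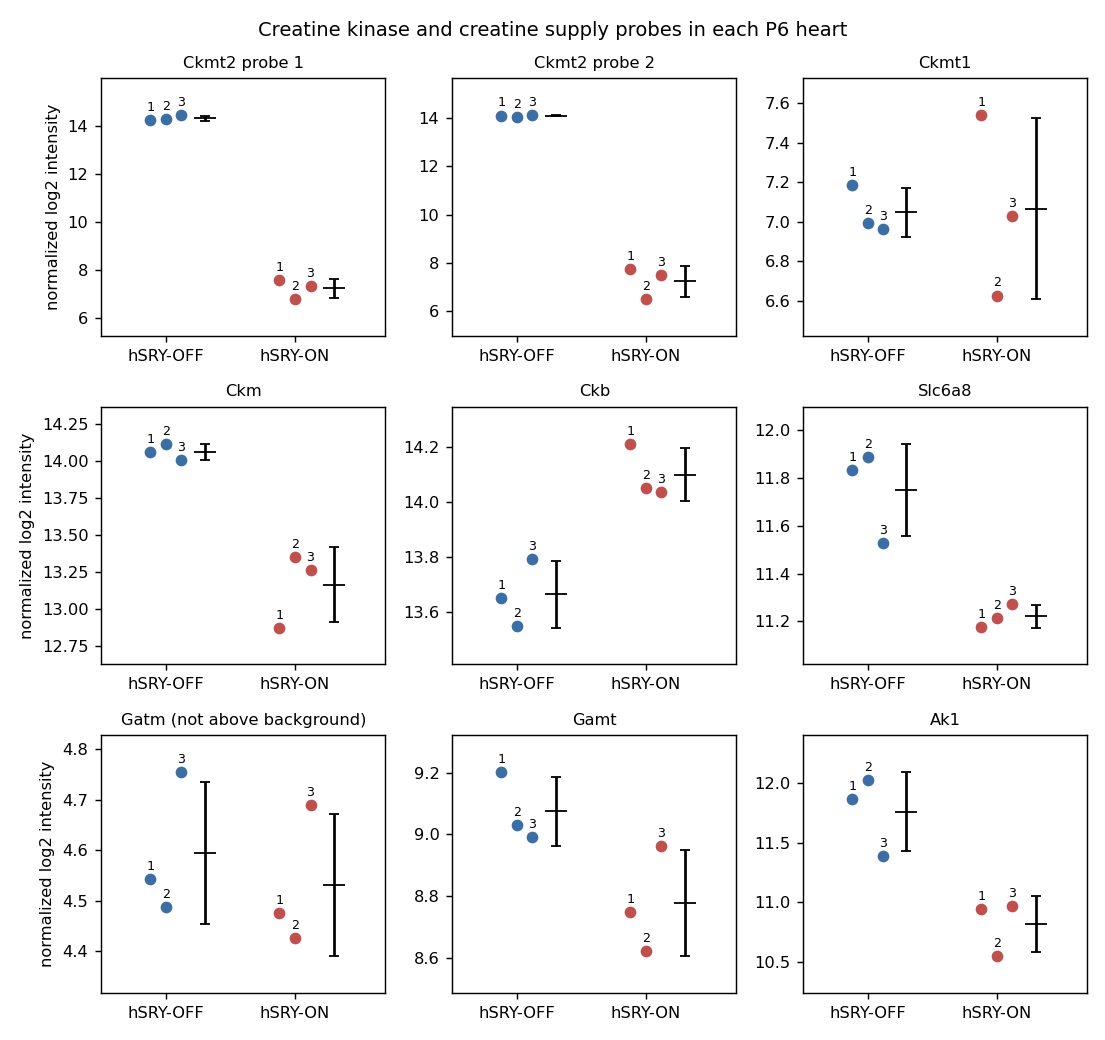
Normalized log2 intensity of the 9 member probes in each heart, with hSRY-OFF in blue, hSRY-ON in red, replicate numbers above the points, and the mean with 1 SD (n = 3) beside them. Each panel has its own vertical scale, and both Ckmt2 probes lie between 14.07 and 14.43 in hSRY-OFF but between 6.50 and 7.74 in hSRY-ON hearts.

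Among the kinases, Ckmt2 was the gene with the widest separation. It encodes the sarcomeric mitochondrial creatine kinase of heart and skeletal muscle. Its deposited intensity at the brighter probe was 23189, 25203 and 19052 in the hSRY-OFF hearts, given here and throughout as replicates 1, 2 and 3, and 305, 241 and 279 in the hSRY-ON hearts. At the other probe it was 20874, 21900 and 15258 in the hSRY-OFF and 325, 222 and 296 in the hSRY-ON hearts. Both probes were thus bright in every hSRY-OFF heart and dim in every hSRY-ON heart, with a wide gap between the groups. The dim values were still above the negative-control beads, since the highest detection p among the hSRY-ON hearts was 0.00125, while undetected probes on these arrays had median intensities of 144 to 148. On the normalized log2 scale the brighter probe stood at 14.31 ± 0.11 (SD, n = 3) in hSRY-OFF and 7.22 ± 0.40 (SD, n = 3) in hSRY-ON hearts, a log2 fold change of -7.09 (SE 0.20), or 136-fold. The other probe changed by -6.85 (SE 0.29), or 116-fold. Without any correction of the background, the mean deposited intensities differed 81.8-fold and 68.9-fold. The fold therefore depends on how the background is treated, and the log2 fold changes ranged from -7.30 to -6.16 and from -7.06 to -5.92 over the other settings that kept all hearts.

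**Figure D2:**
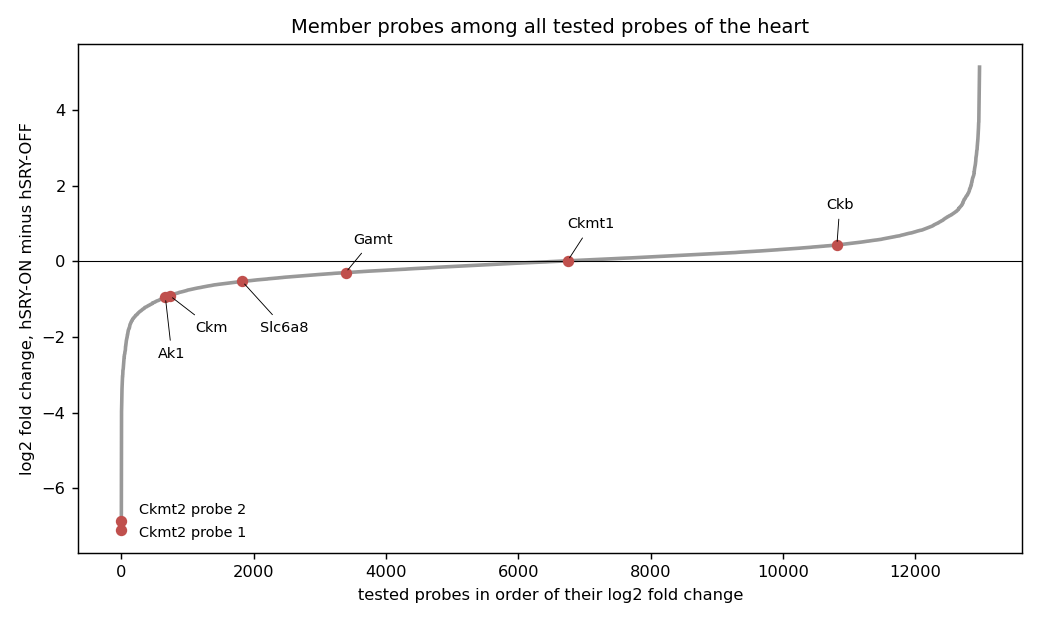
Log2 fold changes of the 12970 tested probes in ascending order (gray line), with the 8 tested member probes in red. The Ckmt2 probes are the lowest of all, at -7.09 and -6.85, whereas Ckmt1 lies near the middle and Ckb on the higher side.

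The probe of Ckmt1, which encodes the ubiquitous mitochondrial creatine kinase found in brain and other tissues, was dim in all hearts. Its normalized log2 value was 7.19, 6.99 and 6.96 in the hSRY-OFF and 7.54, 6.63 and 7.03 in the hSRY-ON hearts. The groups overlapped throughout, and the log2 fold change was 0.02 (SE 0.22). Its sign changed under 5 of the 16 alternatives, with values between -0.22 and 0.24, so no direction can be given for Ckmt1. The log2 ratio of the brighter Ckmt2 probe to the Ckmt1 probe within each array, centred on the hSRY-OFF mean, was -7.24, -7.11 and -6.97 in the hSRY-ON hearts. The mitochondrial isoforms thus changed unequally in each of the 3 hSRY-ON hearts. Within the hSRY-ON group, replicate 1 was the highest and replicate 2 the lowest at both Ckmt2 probes and at the Ckmt1 probe alike.

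Ckm, which encodes the muscle isoform of the cytosolic enzyme, was lower in hSRY-ON hearts by a much smaller amount. Its normalized log2 value was 14.07, 14.12 and 14.01 in the control hearts and 12.87, 13.35 and 13.27 in the hSRY-ON hearts. The hSRY-OFF hearts lay close together, and the hSRY-ON hearts were all below them, replicate 1 farthest. The log2 fold change was -0.90 (SE 0.15), a 1.87-fold difference. It ranged from -1.09 to -0.77 over all alternatives and left-out hearts. The deposited intensities showed the same separation, at 14048 to 22393 in the hSRY-OFF and 7132 to 10117 in the hSRY-ON hearts.

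Ckb, which encodes the brain isoform of the cytosolic enzyme, was the only member on the higher side. Its normalized log2 value was 13.65, 13.55 and 13.79 in the hSRY-OFF and 14.21, 14.05 and 14.04 in the hSRY-ON hearts. The groups did not overlap after normalization, and the log2 fold change was 0.43 (SE 0.12), or 1.35-fold. In the deposited intensities they did overlap, since the controls spanned 11613 to 15361 and the hSRY-ON hearts 15321 to 16638. On the log2 scale of those intensities the difference was 0.18 (SE 0.22), and Ckb was no longer differentially expressed. The fit on that scale gave the same SE of 0.22 to every tested member probe, so it is not the spread of Ckb itself. Ckb also ceased to be differentially expressed when any heart other than hSRY-OFF replicate 3 was left out, with values of 0.37 to 0.47. The higher level of Ckb therefore depends on the normalization between arrays and on single hearts, although its sign was positive under every alternative run.

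The log2 ratio of the Ckm probe to the Ckb probe was taken within each array from the normalized values and centred on the hSRY-OFF mean. It was 0.01, 0.17 and -0.18 in the hSRY-OFF hearts and -1.74, -1.10 and -1.17 in the hSRY-ON hearts. The muscle and brain isoforms thus changed unequally in every hSRY-ON heart, by -1.34 ± 0.35 (SD, n = 3). Replicate 1, the hSRY-ON heart with the lowest Ckm value, was also the one with the highest Ckb value.

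The bases before the annotated start sites of Ckmt2, Ckm and Ckb are shown because these kinase genes had the largest, an intermediate and an opposite change. They come from RefSeq on GRCm38.p6, which held windows for 7 of the 8 member genes, and the 250 bases upstream of each start are printed 5′ to 3′ on the gene's strand. Capitals mark matches to any of 7 motifs on either strand, which were the E-box CANNTG, the MCAT motif CATTCC, the Sry-type core AACAAT, the estrogen-related receptor motif AAGGTCA, the TATA motif TATAAA, the MEF2 motif and the SRF CArG box.
Ckmt2, chr13:91876886-91877135, minus strand: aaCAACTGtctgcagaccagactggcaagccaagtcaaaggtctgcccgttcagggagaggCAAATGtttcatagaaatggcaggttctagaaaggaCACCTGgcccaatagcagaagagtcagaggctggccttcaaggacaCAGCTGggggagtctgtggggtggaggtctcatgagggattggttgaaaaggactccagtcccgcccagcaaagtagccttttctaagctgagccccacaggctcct
Ckm, chr7:19410844-19411093, plus strand: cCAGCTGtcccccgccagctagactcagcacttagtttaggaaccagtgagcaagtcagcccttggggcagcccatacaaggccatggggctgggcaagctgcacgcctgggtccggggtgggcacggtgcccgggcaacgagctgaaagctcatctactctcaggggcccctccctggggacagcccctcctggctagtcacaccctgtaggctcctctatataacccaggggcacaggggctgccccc
Ckb, chr12:111672339-111672588, minus strand: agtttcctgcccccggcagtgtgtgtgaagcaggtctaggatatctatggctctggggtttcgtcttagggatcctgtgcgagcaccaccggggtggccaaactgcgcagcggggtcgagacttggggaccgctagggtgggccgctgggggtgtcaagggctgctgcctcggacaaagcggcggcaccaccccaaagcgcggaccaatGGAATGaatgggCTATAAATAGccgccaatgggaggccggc
The Ckmt2 window held 4 E-box matches, a number reached by 3.84% of the 32851 windows in the table, while the Ckm window held 1, and 66.2% of windows held at least 1. The Ckb window held no E-box. It held a MEF2 match (0.508% of windows) that overlaps a TATA match (12.4% of windows), and a MCAT match on the opposite strand (12.6% of windows). The Sry-type core, present in 9.42% of windows, was in none of the 3. These are matches of letters in a short stretch, and the enhancers of these genes lie partly outside it.

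Of the genes of creatine supply, Slc6a8 encodes the creatine transporter, through which the heart takes up creatine. Its normalized log2 value was 11.83, 11.89 and 11.53 in hSRY-OFF and 11.18, 11.22 and 11.27 in hSRY-ON hearts. All hSRY-ON hearts lay below the hSRY-OFF hearts, of which replicate 3 was the nearest, and the log2 fold change was -0.53 (SE 0.13). Before normalization that heart, at an intensity of 2400, fell within the hSRY-ON range of 2300 to 2500, while hSRY-OFF replicates 1 and 2 stood at 4278 and 4819. Without hSRY-OFF replicate 3 the log2 fold change was -0.64. Slc6a8 was not differentially expressed without control replicate 1 (-0.49), without control replicate 2 (-0.46), or without replicate 1 (-0.51) or 2 (-0.52) of the hSRY-ON group, nor with each array scaled to the median of its detected probes (-0.41), without normalization between arrays (-0.63) or on the log2 scale of the deposited intensities (-0.60).

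Of the genes for the enzymes of creatine synthesis, 1 was undetected and the other was detected on every array. Gatm, which encodes the enzyme that makes guanidinoacetate from arginine and glycine, was detected on none of the 6 arrays, with intensities of 139 to 152 in the controls and 131 to 144 in the hSRY-ON hearts, and it was not tested. Gamt encodes the enzyme that methylates guanidinoacetate to creatine. Its normalized log2 value was 9.20, 9.03 and 8.99 in hSRY-OFF and 8.75, 8.62 and 8.96 in hSRY-ON hearts. The hSRY-ON hearts were all below the hSRY-OFF hearts, but replicates 3 of both groups nearly met, and Gamt was not differentially expressed (log2 fold change -0.30, SE 0.14). In the deposited intensities hSRY-OFF replicate 3, at 496, lay below all hSRY-ON hearts, which stood at 526 to 594.

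Ak1 encodes the cytosolic adenylate kinase of muscle, which regenerates ATP from ADP and works in parallel with the creatine kinases. Its normalized log2 value was 11.87, 12.02 and 11.39 in hSRY-OFF and 10.94, 10.55 and 10.97 in hSRY-ON hearts. The groups did not overlap, hSRY-OFF replicate 3 again being nearest to the hSRY-ON hearts. The log2 fold change was -0.94 (SE 0.20), or 1.92-fold, and it became -1.12 without that heart. Over all alternatives its value lay between -1.12 and -0.81. Its change was close to that of Ckm, and the centred log2 ratio of Ckm to Ak1 in the hSRY-ON hearts was -0.37, 0.50 and -0.01.

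**Figure D3:**
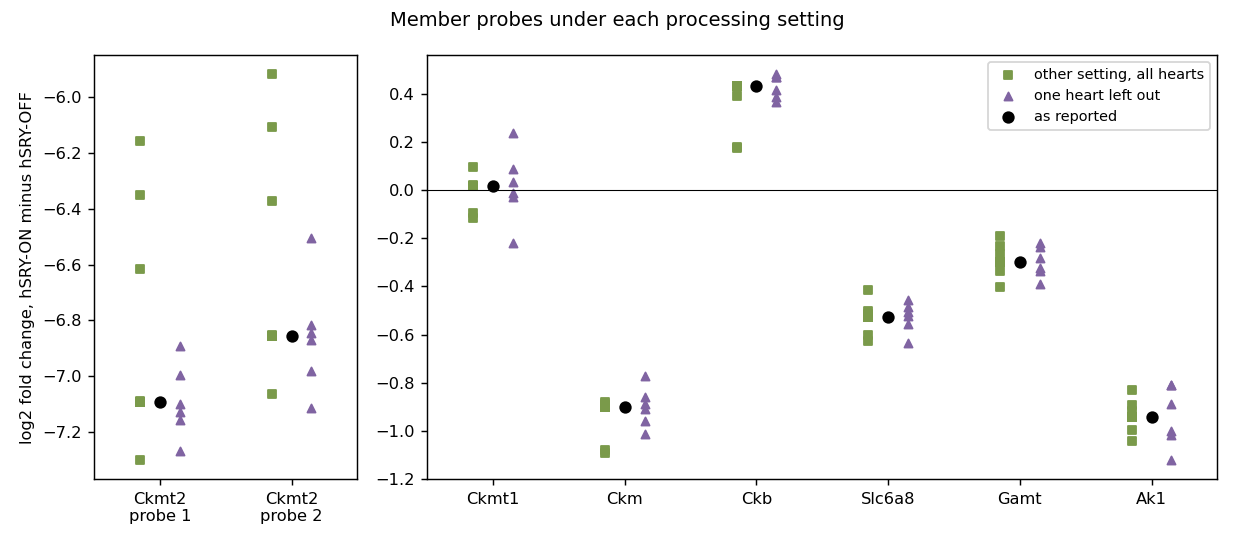
Log2 fold changes of the tested member probes as reported (black), under the other settings with all hearts (green squares) and with 1 heart left out (purple triangles), with Ckmt2 on a scale of its own. Ckm and Ak1 stay near -0.90 and -0.94, the values of Ckb reach down to 0.18, and those of Ckmt1 lie on both sides of 0.

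The genes with the most similar pattern to Ckmt2 and Ckb were sought among 9660 tested genes by the root mean square distance over the 6 hearts between log2 values centred on the hSRY-OFF mean. For Ckmt2 they were Lrtm1, Fbp2 and Asb10, but at distances of 1.29, 2.21 and 2.25 and with log2 fold changes of -5.36, -3.98 and -3.97, so no other gene came near its change. For Ckb they were Pdzd11, Dad1 and Fkbp1a, at distances of only 0.03, 0.04 and 0.05 and with log2 fold changes of 0.47, 0.43 and 0.48.

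Genes next to Ckmt2, Ckm and Ckb on the chromosome were looked up in the RefSeq gene order, 3 on each side of each gene among those with a probe. Of the neighbours of Ckmt2, Zcchc9 and Msh3 were not differentially expressed (log2 fold changes 0.03 and -0.31), Ssbp2 was higher by 0.38 (adjusted p = 0.0427, limma), and Acot12 and Rasgrf2 had no tested probe. Zcchc9, Msh3 and Ssbp2 thus had changes far smaller than that of Ckmt2. All 6 neighbours of Ckm were tested, and Ercc2, Exoc3l2, Cd3eap and Bloc1s3 were higher in hSRY-ON, by 2.07, 0.96, 0.57 and 0.38, where 14.9% of all tested genes were higher. Among the 5 tested neighbours of Ckb, Bag5 was higher by 0.37 and the others were not differentially expressed. These neighbours were chosen after the values of the members were seen, and they were not run under the alternative settings. Some calls were near the threshold, such as Bloc1s3 (adjusted p = 0.0418, limma) and Bag5 (adjusted p = 0.0399, limma). Nothing is read from their number.

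Genes that work beside the members were taken from 4 lists, each gene by its brightest tested probe, where 28.8% of all 9660 tested genes were differentially expressed, 13.9% lower and 14.9% higher. Of 42 tested genes in these lists, 7 were down-regulated and 10 up-regulated. In the list of adenylate kinases and AMP metabolism, 3 of 11 tested genes were up-regulated and none was down-regulated, and the median over the list was -0.03. Unlike Ak1, the adenylate kinase genes Ak3 and Ak3l1 were not differentially expressed, at 0.16 (SE 0.18) and -0.03 (SE 0.25). Nt5e, which encodes the ectoenzyme that turns AMP into adenosine, increased by 1.87 (SE 0.15, adjusted p = 0.000269, limma), and its other probe by 1.19. Adk, which encodes adenosine kinase, increased by 0.78 (SE 0.13, adjusted p = 0.00422, limma). Prkab2, a regulatory subunit of the AMP-activated kinase, increased by 1.61 (SE 0.25, adjusted p = 0.00347, limma), or by 0.86 without background correction and 0.74 on the deposited scale, while the catalytic subunit gene Prkaa2 stood at -0.64 (SE 0.24) and was not differentially expressed.

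In the list of mitochondrial ATP and phosphate exchange, 4 of 11 tested genes were down-regulated and none was up-regulated, with a median of -0.20. Slc25a3, which encodes the mitochondrial phosphate carrier, decreased the most in this list, with log2 fold changes of -1.09 (SE 0.17, adjusted p = 0.00334, limma) and -1.59 at its other probe. Ppif, which encodes cyclophilin D of the matrix, changed by -0.94 (SE 0.15, adjusted p = 0.00361, limma). Immt, which encodes the mitofilin that organizes the cristae, changed by -0.73 (SE 0.11, adjusted p = 0.00268, limma), with 13.79 in each control heart and 13.01 to 13.13 in the hSRY-ON hearts. Vdac1, a channel of the outer membrane to which mitochondrial creatine kinase couples, changed by -0.51 (SE 0.11, adjusted p = 0.0132, limma), and was not differentially expressed without hSRY-OFF replicate 1 (-0.47). The ATP exporter gene Slc25a5 stood at -0.05 (SE 0.11), and the probe of Slc25a4, the muscle form of that exporter, did not pass the detection filter.

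**Figure D4:**
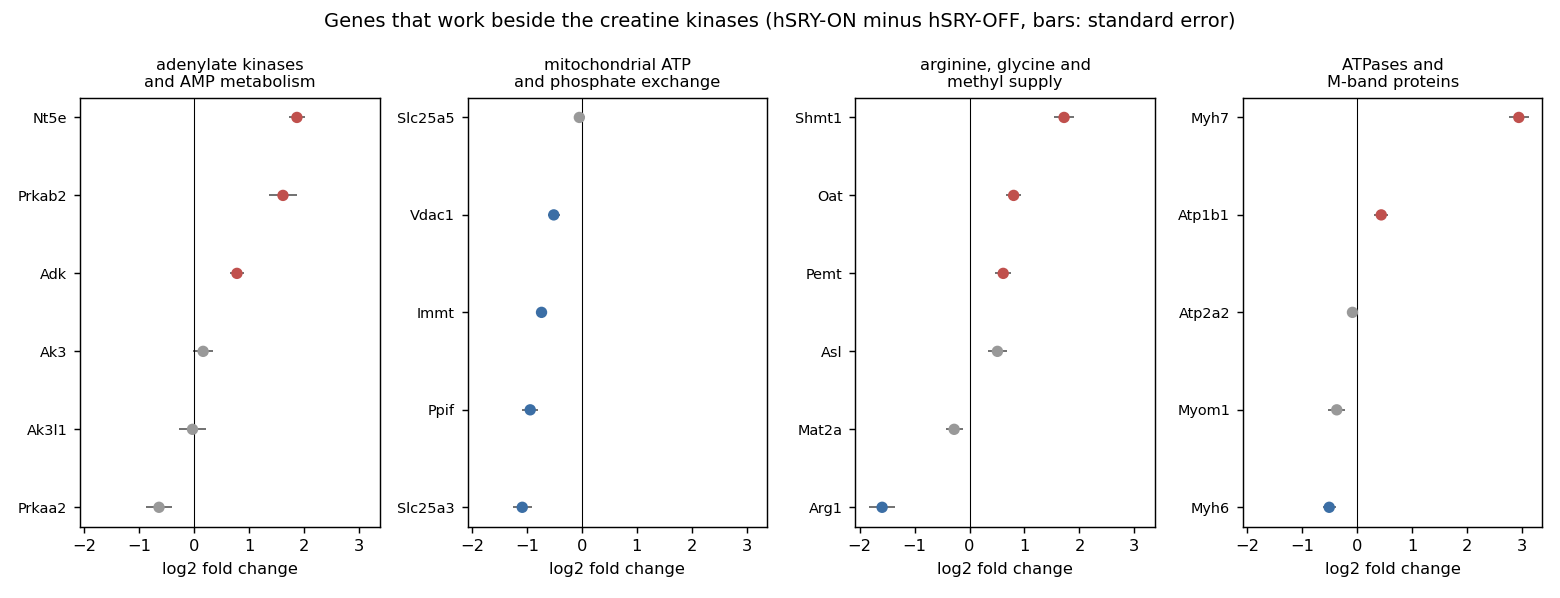
Log2 fold changes with standard errors of 22 tested genes of the 4 lists that the text names, with up-regulated genes in red, down-regulated genes in blue and the others in gray. The genes of mitochondrial exchange that were called lie on the lower side, and Myh7 lies farthest out, at 2.94.

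In the list of arginine, glycine and methyl group supply, 4 of 12 tested genes were up-regulated and 1 was down-regulated, with a median of 0.08. Shmt1, which makes glycine from serine in the cytosol, increased by 1.72 (SE 0.18, adjusted p = 0.000726, limma). Oat, ornithine aminotransferase, increased by 0.80 (SE 0.13, adjusted p = 0.00433, limma), and Pemt, which uses methyl groups to make phosphatidylcholine, by 0.61 (SE 0.14, adjusted p = 0.0165, limma). Pemt was not differentially expressed without hSRY-OFF replicate 1 (0.62), hSRY-OFF replicate 2 (0.53) or hSRY-ON replicate 1 (0.52), without normalization between arrays (0.50) or on the log2 scale of the deposited intensities (0.19). Gnmt, which methylates glycine, was not detected in any control heart and passed the detection filter only through the hSRY-ON hearts. Its place among the 4 up-regulated genes is therefore not read as a result, and with any hSRY-ON heart left out it was not tested. Its mean was 1.51-fold higher in hSRY-ON hearts on the normalized scale, once dim control signals were raised. For this, each control array was given the higher of its lowest detected signal and the signal of the Gnmt probe. Arg1, which cleaves arginine, changed by -1.59 (SE 0.24, adjusted p = 0.003, limma) and was detected on 1 of the 3 hSRY-ON arrays. It passed the detection filter through the 3 control hearts, and its mean in hSRY-ON hearts was only 5.25. The place of Arg1 as the 1 down-regulated gene is therefore not read as a result either. These dim probes depended on the background, since without its correction the log2 fold changes were -0.56 for Arg1, 1.12 for Shmt1, 0.30 for Pemt and 0.24 for Gnmt, and Gnmt was then not differentially expressed. On the deposited scale they were -0.66, 1.01, 0.19 and 0.15, and Gnmt was not differentially expressed there either, nor without normalization between arrays (0.71). The dimmer probe of Asl was up-regulated (0.46) and the dimmest of Mat2a down-regulated (-0.69), whereas the brightest probes of these genes were not differentially expressed.

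In the list of ATPases and M-band proteins at which the cytosolic creatine kinases work, 3 of 8 tested genes were up-regulated and 2 down-regulated, with a median of -0.05. Atp1b1, which encodes a beta subunit of the sodium pump, increased by 0.44 (SE 0.12, adjusted p = 0.035, limma). The myosin heavy chain genes went in opposite directions, since Myh7, the slow form that prevails before birth in the mouse, increased by 2.94 (SE 0.18, adjusted p = 8.25e-05, limma) and Myh6, the adult form, changed by -0.51 at its brightest and -1.97 at its other probe. Atp2a2, the calcium pump of the sarcoplasmic reticulum, was not differentially expressed at its brightest probe (-0.09, SE 0.11) but was down-regulated at the other (-0.53). In hSRY-OFF hearts the brightest probe had a mean of 15.21, near the top of the intensity scale, and the other 13.81. Whether differences were compressed at the brightest probes was not tested. Myom1, an M-band protein to which muscle creatine kinase binds, stood at -0.37 (SE 0.15) and was not differentially expressed. Atp1b1 was not differentially expressed when any heart but hSRY-OFF replicate 3 was left out (0.37 to 0.49), nor was Myh6 when replicate 1 or 2 of either group was (-0.52 to -0.43).

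The cell type markers, whose calls stand beside 13.9% lower and 14.9% higher over all tested genes, give the setting of these values, since in bulk tissue fewer cells of a type and less RNA per cell cannot be told apart. All 10 cardiomyocyte markers on the array were tested and 9 were detected on every array. Of them 5 were down-regulated and none was up-regulated, with a median log2 difference of -0.35. The down-regulated ones were Pln (-1.47), Tnni3 (-1.13), Ryr2 (-1.09), Mybpc3 (-0.51) and Myh6 (-0.51), while the others lay between -0.20 and 0.14. Ryr2 was detected on 2 of the 3 hSRY-ON arrays and passed the filter through the controls, so nothing is read from its call. Tnnc1, Myl3 and Nppa had group means of 15.23 to 15.42, near the top of the intensity scale. Whether differences were compressed there was not tested. The summed normalized intensity of the 10 markers, in which the brightest probes weigh most, was 221979 to 232927 in the controls and 202356 to 218042 in the hSRY-ON hearts. Of 7 smooth muscle markers, a cell type that contains brain-type creatine kinase, 5 were tested, 2 of them up-regulated and 1 down-regulated, with sums of 41231 to 48136 and 51998 to 56869, while Cnn1 and Lmod1 were detected on no array. Acta2 (0.53) and Tagln (1.81) were the up-regulated ones and Smtn (-1.47) the down-regulated one. Acta2, the brightest, made up most of these sums, so they mainly follow that single probe. Of 8 brown fat markers 5 were tested and 2 up-regulated, with sums of 2101 to 2895 and 1388 to 4002, and Elovl3 and Plin were detected on no array. The up-regulated ones, Ucp1 and Adipoq, were detected on 3 hSRY-ON arrays but on only 1 and 2 control arrays. They passed the filter through the hSRY-ON hearts, so nothing is read from their calls. The 2 markers detected on every array, Cidea (-1.05, SE 0.37) and Pparg (0.20, SE 0.18), were not differentially expressed. Of 5 macrophage markers 3 were up-regulated, with sums of 2704 to 3714 and 6040 to 6944. None of the 6 fibroblast markers was called (limma, with 2 of 6 at an unadjusted p under 0.05), 1 of 5 tested erythroid markers was down-regulated, and 2 of 5 tested endothelial markers were down-regulated and 1 up-regulated. Of the 7 fast skeletal muscle markers 3 were tested, 1 up-regulated and 1 down-regulated, and Myh1, Myh2, Myh4 and Tnnt3 were detected on no array. For hepatocytes 1 of 6 markers was tested and it was up-regulated, with sums of 75.0 to 85.5 and 248 to 454 over the list and no detected Alb, for T cells and thymus 2 of 4 tested markers were down-regulated, and for glia and neurons 0 of 3 were called (limma, with 0 of 3 at an unadjusted p under 0.05). The up-regulated hepatocyte marker, Ttr, and the up-regulated fast skeletal muscle marker, Actn3, were detected in no control heart. Both passed the filter only through the hSRY-ON hearts, so nothing is read from their calls. The down-regulated T cell markers, Cd3g and Cd3d, were dim and were detected on 3 and 2 control arrays but on 1 hSRY-ON array each. Nothing is read from the calls of Cd3g and Cd3d either. The part of these cell types in the values of the creatine kinases was not tested.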

How the data were processed

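Total RNA of 3 hSRY-ON and 3 hSRY-OFF hearts was hybridized to Illumina MouseRef-8 BeadChip arrays, and the sample titles gave the group and replicate number. The authors deposited linear intensities, averaged over a probe's beads, with neither normalization nor background subtraction. Beside each they deposited a detection p-value, which compares the probe with the array's negative-control beads. The bead summary software is not given in the sources used here, and no genome build enters the values. The study names the R package TCC, without settings, and the submitters' processing notes name limma.

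The intensities were processed with R 4.3.3 and limma 3.58.1. The function neqc corrected the background, with negative controls inferred from detection, then added 16 as an offset, applied quantile normalization and took log2. The linear model (lmFit, then eBayes) held the group and no covariate. For an alternative that leaves out a heart, all steps were repeated on the other 5 arrays. Where 1 probe per gene was needed, the brightest on average was used. The members and lists were chosen with earlier results of these data known.

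The genes named in the text are all probes of the members, the differentially expressed genes of each companion list (at most 3 in each direction where more than 6 were called), the 3 nearest patterns to Ckmt2 and Ckb, and Sry. Other genes were named after their values were seen, and a few genes of these lists and of the neighbours are not reported here. There were 11 marker lists. The procedure was also run on simulated data with 12963 tested probes, of which 199 were changed. It called 175 of these (87.9%) with the correct sign, besides 17 unchanged ones. In the hearts 27.5% of the tested probes were differentially expressed. How the procedure performs with so large a share of differing probes was not tested. The number of arrays limits the precision. Plots were made in matplotlib 3.10.9 under Python 3.11.15. No probe sequences were used, so cross-hybridization between the kinase genes was not examined.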

Additional observations from a re-analysis of the deposited data

How the results depend on the processing

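The number of differentially expressed probes, 3567, fell to 1897 without normalization between arrays and to 1522 on the log2 scale of the deposited intensities, an alternative chosen after seeing the data. With each heart left out in turn it ranged from 2206 to 3669, the lowest without hSRY-OFF replicate 1 and the next, 2255, without hSRY-ON replicate 1. The number of companion genes called, 17, fell to 9 without normalization between arrays, and that of member probes called, 6, stayed between 4 and 6. Among the companion genes lost were Adk (0.63), Oat (0.66), Pemt (0.50), Gnmt (0.71), Vdac1 (-0.63), Myh6 (-0.70) and Atp1b1 (0.26). In that fit the members and named companion genes all had the same SE, 0.30, and on the deposited scale all had 0.22. Calls lost in these fits therefore do not rest on the spread of each gene. Without that normalization the median of all tested probes was -0.12 and 38.5% of the calls were up, against 50.1%, and with scaling to the median of detected probes 65.7% were. The causes were not tested. Ckmt1 reversed its sign without normalization between arrays (-0.11), on the deposited scale (-0.10), and without hSRY-OFF replicate 2 (-0.01), hSRY-OFF replicate 3 (-0.03) or hSRY-ON replicate 1 (-0.22), and reached 0.24 without hSRY-ON replicate 2. With the replicate number as a block (replicate block), 2842 probes, 4 member probes and 15 companion genes were called, and Ckb and Slc6a8 were not among them, although the fold changes were the same. Hearts of the same number did not deviate together, with correlations of their deviations from the group means of -0.02, 0.04 and -0.07 across probes, so the numbers were not taken as pairs. The slide of each array was not named, and the slide as a block was not run.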
